A study of Mus musculus with 45 samples.

Results

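The 10 genes described here encode enzymes and coat proteins of triglyceride storage and lipolysis, namely Dgat1, Dgat2, Mogat2, Plin2, Plin3, Pnpla2, Abhd5, Lipe, Mgll and Faah. They were taken from the RNA-seq count table by gene symbol, and they are 10 of its 24918 gene entries. The list was chosen by gene name with an earlier result of these libraries in view, the higher Mgll counts of obese mice, so the values and calls of these genes in obese against control mice are given below as a description, with no p. All 10 genes passed the filter on low counts, which kept 12961 entries. The study asked how a high-fat diet, and a return from it to a low-fat diet, acted on the epithelium of the mouse colon. Male C57BL/6 mice (C57BL/6J in the methods) entered the diets at 6 weeks of age and were kept on them for 20 weeks. Control mice (LF) ate a diet with 10% fat throughout, obese mice (HF) ate a diet with 60% fat throughout, and formerly obese mice (HFLF) were moved to the low-fat diet for the last 5 weeks, after 15 weeks of high fat. Each group gave 5 RNA-seq libraries, 1 per mouse, from epithelium released with EDTA. None of these libraries was taken at the switch of diet, so the level at the switch is not known.

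Cells store surplus fatty acids as triglyceride in lipid droplets. Triglyceride is built from diacylglycerol by the acyltransferases DGAT1 and DGAT2, and in enterocytes part of that diacylglycerol comes from monoacylglycerol through MGAT2, the product of Mogat2. Perilipins coat the droplet. Lipolysis then removes the fatty acids in turn, with ATGL (Pnpla2) and its coactivator CGI-58 (Abhd5) acting on triglyceride, hormone-sensitive lipase (Lipe) on diacylglycerol and monoacylglycerol lipase (Mgll) on the last step. MGLL also degrades the endocannabinoid 2-arachidonoylglycerol, and FAAH degrades anandamide, the other main endocannabinoid.

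The libraries held 15230391 to 22762095 gene counts, the largest being HFLF replicate 3. Depth differed by group, since HFLF replicates 1, 3, 4 and 5 each held more than any control or obese library (at most 16749096). Within groups, no pair of libraries was as alike as sampling noise alone allows (smallest chi-square per degree of freedom, 5.72). The 8 epithelial markers summed to 13700 to 16200 CPM (counts scaled to library size) in every library, and the 5 smooth muscle markers to 2.39 CPM at most. The labels gave no cage, extraction or sequencing batch.

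Mgll and Dgat2 stood higher in obese and formerly obese mice than in control mice, and no other gene of the 10 was called in any comparison. Calls came from edgeR's quasi-likelihood fit over all tested genes and needed a fold of more than 1.2, p under 0.01 and adjusted p under 0.25. For obese against control mice, 2 of 10 genes were called, both higher, where 1.58% of all tested genes were called and 0.718% were called higher. The same pair had non-overlapping groups, as did 2.47% of all tested genes. Since that contrast was in view when the genes were chosen, nothing is read from these counts. For formerly obese against control mice, a comparison that uses the same control libraries, Mgll and Dgat2 were again called higher (2 of 10), beside 3.72% of all tested genes called and 1.85% called higher. Only Mgll had non-overlapping groups there, as did 3.62% of all tested genes. Because the control libraries are shared, low control values that favoured the choice of genes would also raise these changes. The p-values given for formerly obese mice against control are therefore not independent of that choice, and were not corrected for it. For formerly obese against obese mice, 0 of 10 genes were called and 0 had non-overlapping groups, beside 2.65% and 3.38% of all tested genes. No gene of the 10 had an unadjusted p under 0.05 in that last comparison, and DESeq2 also called 0. Obese libraries were also in view at the choice, so high obese values that favoured it would lower formerly obese values against obese. The p-values of this comparison are likewise not independent of the choice, and were not corrected for it. Over the 10 genes the median absolute log2 fold change was 0.079, 0.091 and 0.051 in these 3 comparisons, beside 0.073, 0.089 and 0.079 over all tested genes.

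**Figure D1:**
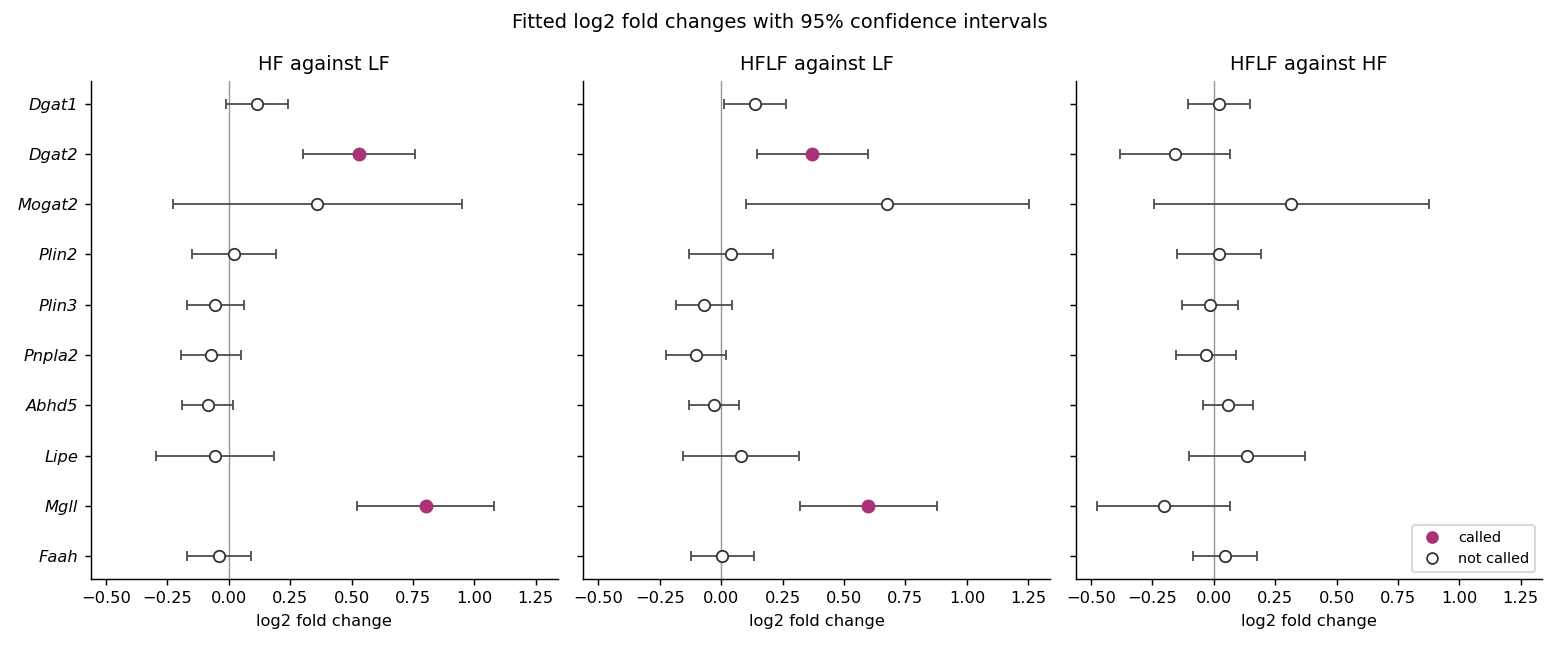
Fitted log2 fold changes (x axis) of the 10 genes (y axis) for obese against control, formerly obese against control and formerly obese against obese mice. Bars are 95% confidence intervals, and filled points mark called genes. The first panel is the contrast in view when the genes were chosen and is a description only. The second shares its control mice and the third its obese mice. Mgll and Dgat2 lie to the right of 0 in the first 2 panels, and every interval in the third panel spans 0.

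Levels of different genes were compared only as CPM per kilobase of annotated exon. In control mice Plin2 stood highest at 86.3 ± 9.93 (SD, n = 5), followed by Pnpla2 at 59.1 ± 2.43 and Plin3 at 47.9 ± 3.73. Dgat1 (26.5 ± 2.15) and Dgat2 (25.7 ± 2.19) did not differ beyond their spread. Abhd5 (15.5 ± 0.84) stood just above Faah (13.3 ± 0.93). Mgll, at 5.62 ± 1.08, and Lipe, at 4.18 ± 0.52, overlapped, and Mogat2 was lowest at 1.62 ± 0.71. In obese mice Dgat2 (37.1 ± 4.54 CPM per kilobase) stood above Dgat1 (28.7 ± 1.31), the 1 place where the order differed from that of control mice. Mgll was at 9.80 ± 1.42 there and Lipe at 4.02 ± 0.41. The transcripts of the droplet coat and of the first lipase were thus the abundant ones, and Mgll, Lipe and Mogat2 the scarce ones.

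**Figure D2:**
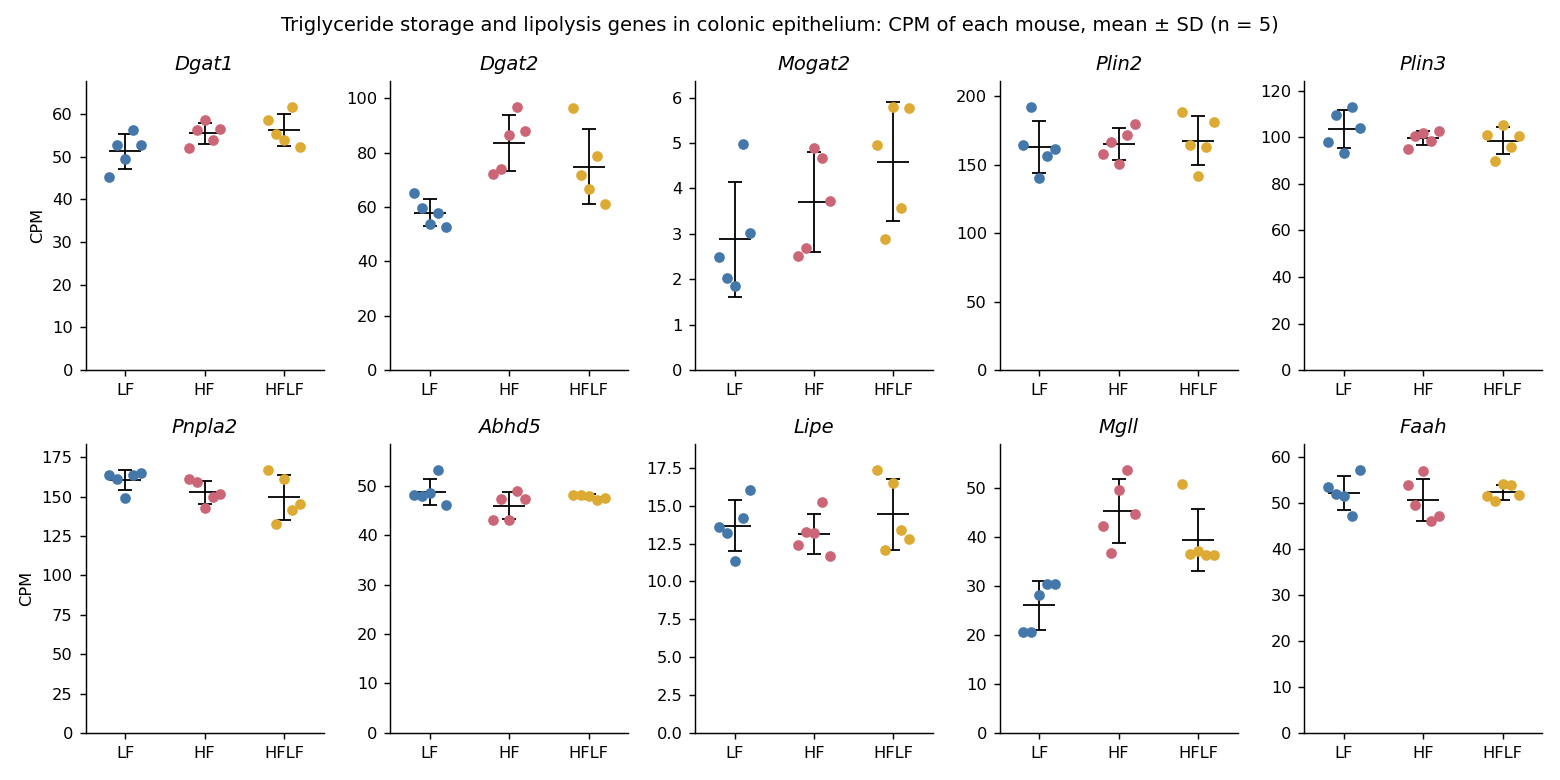
CPM (y axis, from 0) of each gene in each mouse, by diet group (x axis). Points are mice, the horizontal bars are means and the error bars SD (n = 5). The obese and formerly obese points of Mgll lie above all control points, with HFLF replicate 1 at 50.7 CPM apart from the other 4 formerly obese mice.

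Dgat2 encodes the acyltransferase of the endoplasmic reticulum and droplet surface that joins the last fatty acid to diacylglycerol. In control mice its CPM was 65.1, 59.6, 53.9, 58.0 and 52.8. In obese mice it was 72.3, 74.1, 86.5, 96.7 and 88.2. In formerly obese mice it was 96.4, 71.6, 66.6, 78.9 and 61.0. Every obese mouse lay above every control mouse, whereas formerly obese replicate 5 fell among the control mice. The log2 fold change was 0.53 (SE 0.11) in obese and 0.37 (SE 0.11, adjusted p = 0.0823) in formerly obese mice, each against control. Formerly obese mice were 0.16 lower than obese mice on the log2 scale (95% interval of the difference −0.38 to 0.06, adjusted p = 0.561). Without HFLF replicate 1, the mouse with the highest Dgat2 of its group, that difference was −0.27 (adjusted p = 0.178) and was called. The obese libraries behind both values were in view when the genes were chosen.

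Dgat2 was also the gene of the 10 with a differentially methylated region (DMR) closest upstream of it. The DMRs are stretches of CpGs that the authors found to differ in methylation between obese and control mice by whole-genome bisulfite sequencing, and they carry a position and a direction but no level per mouse. The region at chr7:99183865-99183916 (mm10), 52 bp with 3 CpGs, was hypo-methylated in obese mice and lay 1.15 kb upstream of Dgat2 (chr7:99153663-99182713, minus strand), outside every annotated gene. It is shown with 60 bp of flank on each side, chr7:99183805-99183976 of GRCm38 read on the minus strand, the DMR in capitals.
Dgat2 upstream DMR: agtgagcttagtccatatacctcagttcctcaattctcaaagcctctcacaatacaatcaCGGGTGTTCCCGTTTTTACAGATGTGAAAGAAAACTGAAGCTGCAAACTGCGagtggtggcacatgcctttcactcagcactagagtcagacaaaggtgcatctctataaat
All 3 CpGs of that window lay within the DMR.

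Dgat1, the other enzyme of the same step, was not called. Its CPM was 51.2 ± 4.17 in control mice, 55.5 ± 2.54 in obese and 56.3 ± 3.75 after the return to low fat (SD, n = 5 each). The groups overlapped, and the log2 fold change of formerly obese against control mice was 0.14 (95% interval 0.01 to 0.26, adjusted p = 0.26), short of a call. No DMR lay within 100 kb of Dgat1.

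Mogat2, which makes diacylglycerol from monoacylglycerol in the small intestine, was scarce, with 30 to 130 counts per library. Its CPM was 2.49, 2.03, 1.86, 4.99 and 3.02 in control mice. Obese mice had 2.52, 2.69, 4.90, 4.68 and 3.72. Formerly obese mice had 4.95, 2.88, 5.79, 3.56 and 5.77. The groups overlapped throughout, and control replicate 4 was higher than all but 2 of the formerly obese mice. The log2 fold change was 0.36 (SE 0.28) in obese mice and 0.68 (SE 0.27, adjusted p = 0.21) in formerly obese mice against control, with no call. It was 0.97 (adjusted p = 0.04) without control replicate 4 and 0.80 (adjusted p = 0.146) without HFLF replicate 2, both called. The 95% interval of the formerly obese change ran from 0.10 to 1.25. Mogat2 (chr7:99219084-99238611, minus strand) is on the same chromosome as Dgat2, and the DMR upstream of Dgat2 lay 35.2 kb beyond the end of Mogat2. Another 2 DMRs lay upstream of Mogat2, a hyper-methylated one at 16.6 kb and a hypo-methylated one at 40.1 kb.

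Neither droplet coat gene was called. Plin2, the perilipin found on droplets of most cells, had 163 ± 18.7 CPM in control mice, 165 ± 11.6 in obese and 168 ± 18.1 after the return to low fat (SD, n = 5 each). Its log2 fold change of formerly obese against control mice was 0.04 (95% interval −0.13 to 0.21, adjusted p = 0.842). Plin3, a perilipin that moves between cytosol and nascent droplets, had 104 ± 8.05, 99.6 ± 3.10 and 98.5 ± 5.97 CPM, with −0.07 (−0.18 to 0.05, adjusted p = 0.556) for the same comparison.

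A hypo-methylated DMR of 45 bp and 2 CpGs, chr4:86668159-86668203, lay in an intron of Plin2, its midpoint 1.88 kb from the start of the gene (chr4:86656565-86670059, minus strand). It is shown on the minus strand of GRCm38 with 60 bp of flank on each side, chr4:86668099-86668263, the DMR in capitals.
Plin2 intronic DMR: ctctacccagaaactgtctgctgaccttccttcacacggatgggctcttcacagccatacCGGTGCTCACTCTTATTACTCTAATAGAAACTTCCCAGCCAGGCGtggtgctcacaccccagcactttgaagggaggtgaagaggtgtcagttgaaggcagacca
The window held 3 CpGs, 2 of them in the DMR, and Plin2 transcript levels overlapped in all groups as given above.

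Pnpla2 encodes ATGL, the lipase that opens triglyceride breakdown. Its CPM was 164, 161, 149, 163 and 165 in control mice. Obese mice had 161, 159, 143, 150 and 151. Formerly obese mice had 167, 132, 161, 141 and 145. Control replicate 3 stood apart from the other 4 control mice, and the groups overlapped. The log2 fold change was −0.07 (SE 0.06) in obese and −0.10 (SE 0.06, adjusted p = 0.389) in formerly obese mice against control. The 3′ end of Pnpla2 (chr7:141455188-141460743, plus strand) met a hyper-methylated DMR of 170 bp and 2 CpGs at chr7:141460684-141460853, the longest of the regions in or near these 10 genes except 1 of 267 bp lying 74.6 kb upstream of Pnpla2. The part of the DMR past the end of the gene, chr7:141460744-141460853 of GRCm38, plus strand, is printed in capitals throughout because it lies wholly in the DMR.
Pnpla2 DMR past the gene end: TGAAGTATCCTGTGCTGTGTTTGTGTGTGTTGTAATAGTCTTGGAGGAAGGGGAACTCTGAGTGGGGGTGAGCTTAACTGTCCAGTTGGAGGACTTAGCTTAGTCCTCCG
That stretch holds 1 of the 2 CpGs, and the other lies in the untranslated end of the last exon.

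Abhd5, the coactivator of ATGL, had 48.8 ± 2.65 CPM in control mice, 46.0 ± 2.67 in obese and 47.8 ± 0.42 after the return to low fat (SD, n = 5 each). The 5 formerly obese mice lay within 47.2 to 48.2 CPM, the narrowest spread of any gene and group here (coefficient of variation 0.88%). At 768 to 1078 counts per library, sampling noise alone usually gives a wider spread, so nothing is read from it. Its log2 fold change was −0.09 (SE 0.05) in obese and −0.03 (SE 0.05, adjusted p = 0.81) in formerly obese mice against control. Lipe, the hormone-sensitive lipase, had 13.7 ± 1.69, 13.2 ± 1.34 and 14.4 ± 2.34 CPM, with 0.08 (SE 0.11, adjusted p = 0.767) for formerly obese against control mice. Lipe shares its locus with a long noncoding RNA gene on the opposite strand, 4732471J01Rik, and the strand setting of the counting is not given in the sources used here, so its counts are uncertain to that extent. No DMR lay within 100 kb of Lipe.

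Mgll encodes monoacylglycerol lipase, which frees the last fatty acid from glycerol. Its CPM was 20.6, 20.6, 28.2, 30.3 and 30.3 in control mice. In obese mice it was 42.1, 36.7, 49.5, 53.6 and 44.7. In formerly obese mice it was 50.7, 36.4, 37.1, 36.4 and 36.3. Every obese and every formerly obese mouse lay above every control mouse, and the formerly obese mice lay within the range of the obese mice or just under it. Control mice fell into a lower pair and a higher group of 3, and 4 of the 5 formerly obese mice were within 36.3 to 37.1 CPM. The log2 fold change against control was 0.80 (SE 0.13), or 1.74-fold, in obese mice. In formerly obese mice it was 0.60 (SE 0.13, adjusted p = 0.0276), or 1.51-fold, after 5 weeks on the low-fat diet. Formerly obese mice were lower than obese mice by a log2 fold change of −0.20, with a 95% interval of −0.47 to 0.07 (adjusted p = 0.532), so neither an equal level nor a modest fall could be told from these libraries. The high obese values were in view at the choice of genes, which by itself favours a fall here. Without HFLF replicate 1, the formerly obese mice were at 0.49 (adjusted p = 0.0627) against control and −0.31 (adjusted p = 0.257) against obese mice. Mgll overlaps the long noncoding RNA gene Gm26588 on the opposite strand, which carries the same uncertainty as for Lipe.

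No DMR lay within 100 kb of Mgll (chr6:88724412-88828360, plus strand). The 250 bases before its first annotated start, chr6:88724162-88724411 on the plus strand, are given from RefSeq (GRCm38.p6) because Mgll is the gene with the largest called change.
Mgll promoter: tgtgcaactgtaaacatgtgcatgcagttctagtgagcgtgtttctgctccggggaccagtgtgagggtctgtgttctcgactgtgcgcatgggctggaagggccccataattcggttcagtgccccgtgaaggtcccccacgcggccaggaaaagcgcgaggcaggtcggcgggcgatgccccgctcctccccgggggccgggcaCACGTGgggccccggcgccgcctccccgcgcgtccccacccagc
Capitals mark the single match to the E-box CACGTG. Of 32851 annotated promoter windows, 6.02% hold it in their first 250 bases, the part before the start that was searched. AGGTCA (a site of nuclear receptors, in 14.0% of the windows), CCAAT (33.8%) and GGGCGG (32.7%) were searched on both strands and had no match there. A second Mgll window of the table, at a later annotated start, held 1 GGGCGG match and no CACGTG, and is not printed because it lies in the transcribed part of the first transcript. Promoter windows matched 7 of the 10 genes, those of Dgat1, Dgat2 and Mogat2 being the ones without a match.

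Faah, the fatty acid amide hydrolase, had 52.3 ± 3.65 CPM in control mice, 50.8 ± 4.58 in obese and 52.4 ± 1.63 after the return to low fat (SD, n = 5 each). Its log2 fold change was −0.04 (SE 0.06) in obese and 0.00 (95% interval −0.13 to 0.13, adjusted p = 0.982) in formerly obese mice against control. Of the enzymes that degrade the 2 main endocannabinoids, Mgll was called and Faah was not. Mgll was the gene in view when the list was chosen, so nothing is read from that contrast between them. The difference between these genes was not tested. Among 7 tested endocannabinoid genes outside the 10, none was called in obese mice, and Daglb, a diacylglycerol lipase that makes 2-arachidonoylglycerol, was called higher in formerly obese mice (0.27, adjusted p = 0.132).

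Some markers of cell types and of colon position were called between the same groups, and others were not. The 10 small intestine markers include genes of fat and sugar absorption such as Apob, Fabp2 and Sis. They summed to 724 to 1090 CPM in control mice, 927 to 1250 in obese and 1130 to 1410 in formerly obese mice. Most of these sums came from Apob (means of 407, 557 and 547 CPM) and Fabp2 (372, 402 and 563 CPM). Lct, Apoa1 and Apoa4 were near 0 (0.09, 0.17 and 0.04 CPM in control mice) and did not pass the filter. Against control, 2 of the 7 tested small intestine markers were called higher in obese mice and 5 in formerly obese mice. The 9 posterior Hox genes, which mark the distal gut, summed to 485 to 606, 424 to 550 and 351 to 455 CPM, with 1 called lower in obese and 7 in formerly obese mice. Of 7 colonocyte markers, 4 were called higher in formerly obese mice and 0 in obese mice, each against control. Their sums in control, obese and formerly obese mice were 6560 to 12900, 7340 to 12000 and 9850 to 15400 CPM. Of 8 goblet cell markers, 1 was called higher in obese mice and 0 in formerly obese mice. No tested enteroendocrine, stem and proliferating, immune, fibroblast, endothelial or epithelial marker was called in either comparison with control mice. Without a call, all 4 tested fibroblast markers lay above 0 in both comparisons (median log2 fold changes of 0.66 and 1.09). Fibroblast sums were 2.28 to 10.5, 6.42 to 17.3 and 5.89 to 30.1 CPM in control, obese and formerly obese mice. Of 4 tested immune markers, 4 lay above 0 in obese and 3 in formerly obese mice. HFLF replicate 1, the mouse with the highest Mgll and Dgat2 of its group, also had the highest small intestine sum of all libraries (1410 CPM). The same library had the highest sums of adipocyte markers (14.0 CPM) and of PPAR targets (4766 CPM), 2 lists described below. For formerly obese against obese mice, 3 colonocyte markers and 1 adipocyte marker were called higher. In that comparison 2 posterior Hox genes and 1 enteroendocrine marker were called lower, and no other tested marker was called. Beside these marker counts, 1.58%, 3.72% and 2.65% of all tested genes were called in the 3 comparisons. The part of these markers and of the PPAR targets in the Mgll, Dgat2 and Mogat2 values was not tested. In bulk libraries, fewer cells of a type and less RNA per cell cannot be told apart.

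Adipocyte markers other than Cidec had group means of 1.1 CPM at most. The 10 adipocyte markers summed to 3.67 to 6.83 CPM in control mice, 4.46 to 8.20 in obese and 6.08 to 14.0 in formerly obese mice, and Lep, Retn and Plin1 were at 0 counts in all 15 libraries. Only 2 of the 10 passed the filter. Cidec, a droplet fusion protein, supplied most of the sum with 3.89, 5.57 and 7.44 CPM. It was called higher in formerly obese mice against control (0.93, adjusted p = 0.0848).

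Other genes of the pathway were counted in lists that were likewise chosen with earlier results known, and their counts stand beside the 1.58%, 3.72% and 2.65% of all tested genes called in the 3 comparisons. Of 13 other genes of glycerolipid synthesis, 1 was called lower in obese mice, and 2 were called higher and 1 lower in formerly obese mice, each against control. The lower one was Gpam, the mitochondrial acyltransferase that starts glycerolipid synthesis, at −0.35 in obese and −0.33 (adjusted p = 0.0276) in formerly obese mice on the log2 scale. The higher ones in formerly obese mice were Agpat9, the endoplasmic reticulum enzyme of that first step (0.44, adjusted p = 0.0253), and Lpin2, a phosphatidate phosphatase (0.40, adjusted p = 0.105). Of 9 other droplet protein genes, Hsd17b13 was called higher in obese mice (0.47) and Cidec in formerly obese mice (0.93, adjusted p = 0.0848). Of 11 other lipid hydrolase genes, Lipa, the lysosomal acid lipase, was called higher in obese (0.29) and in formerly obese mice (0.32, adjusted p = 0.079), and Pnpla7 was called lower in obese mice (−0.27). Abhd6, another monoacylglycerol hydrolase, was called higher in formerly obese mice (0.38, adjusted p = 0.026). Of these 11 genes, only Lipg was called in formerly obese against obese mice, where it was higher (0.47, adjusted p = 0.0867). Of 12 tested PPAR targets, genes switched on by fatty acid receptors, Creb3l3 was called higher in obese mice (1.61). The medians over the lists in formerly obese against control mice were 0.01 for synthesis, 0.08 for droplet proteins, 0.15 for hydrolases, −0.02 for endocannabinoid genes and 0.16 for PPAR targets, beside 0.06 for the 10 genes and 0.00 for all tested genes.

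Variation among mice of a group was then compared between the 10 genes. For each of 45 pairs, log2 CPM was centred on its group mean and correlated over the 15 mice, with values shuffled within groups in 100000 permutations, two-sided. Abhd5 and Faah ran in opposite directions. Their Pearson r was −0.936 (permutation p = 0.00011, adjusted p = 0.00495) and their Spearman rho −0.921 (permutation p = 0.00023, adjusted p = 0.0103). Among control mice, replicate 4 had the highest Abhd5 (53.2 CPM) with the lowest Faah (47.1 CPM), and replicate 5 the lowest Abhd5 (46.1 CPM) with the highest Faah (57.2 CPM). Among obese mice, replicate 4 had the highest Abhd5 (48.8 CPM) with the lowest Faah (46.0 CPM), and replicate 3 the lowest Abhd5 (43.1 CPM) with the highest Faah (56.9 CPM). Without the 2 libraries farthest from the median of Abhd5, r was −0.888 (permutation p = 0.00239), and at that number of mice no pair of the 45 passed an adjusted p of 0.05. Without centring on group means, r over the 15 mice was −0.661. Abhd5 varied little within groups, with coefficients of variation of 5.4%, 5.8% and 0.88% in control, obese and formerly obese mice. Counts per library were 686 to 1078 for Abhd5 and 738 to 1216 for Faah. Sampling noise at such counts adds to the spread of each gene, and its share was not estimated. Both genes were read from the same libraries.

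**Figure D3:**
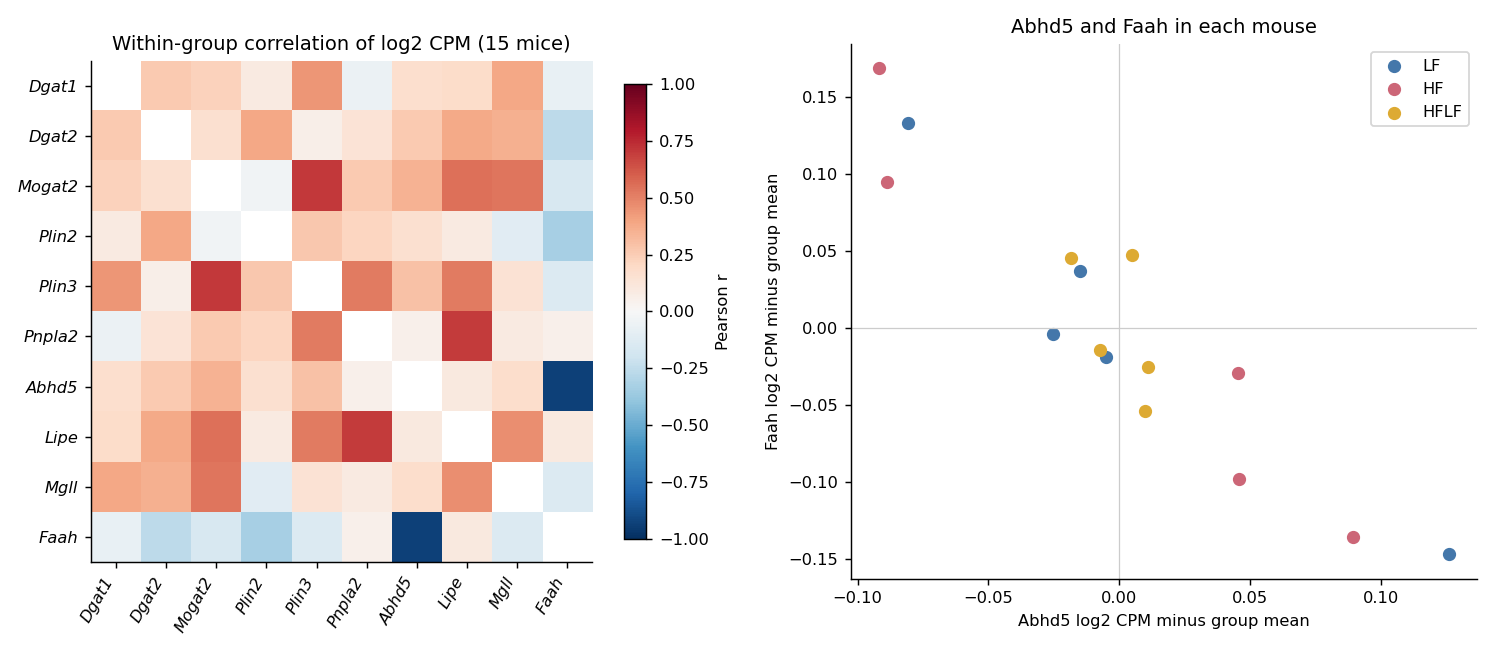
Left, Pearson r of group-centred log2 CPM for each pair of the 10 genes over 15 mice, on a colour scale from −1 to 1. Right, group-centred log2 CPM of Abhd5 (x axis) and Faah (y axis), 1 point per mouse, coloured by group. The points fall from upper left to lower right (r = −0.936).

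No other pair passed. The next were Mogat2 with Plin3 (r = 0.708, rho = 0.643, permutation p = 0.00862 and 0.0164, adjusted p = 0.194 and 0.267) and the lipases Pnpla2 with Lipe (r = 0.697, rho = 0.679, permutation p = 0.019 and 0.0178, adjusted p = 0.285 and 0.267). Mgll and Dgat2, the genes called in both comparisons with control mice, had r = 0.358 and rho = 0.282 within groups (permutation p = 0.193 and 0.314, adjusted p = 0.76 and 0.827). Their r was 0.826 without the 2 libraries farthest from the median of Mgll (permutation p = 0.00476), so that value rests on which libraries are counted.

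Across all genes, the profile of Mgll over the 15 libraries was most like those of Acaa1b (r = 0.895), Dsc2 (0.878), Tstd2 (0.876), Slc27a2 (0.872) and Pcsk5 (0.87). Acaa1b encodes a peroxisomal thiolase and Slc27a2 a fatty acid transporter with acyl-CoA synthetase activity. Within groups these genes had r of 0.662 to 0.911 with Mgll, Acaa1b being the highest. The genes most like Dgat2 were Itgav (0.917), Ces2b (0.89), Noa1 (0.886), Hsd17b13 (0.884) and Prex1 (0.88). Ces2b is a carboxylesterase, and Hsd17b13, a droplet protein, was the called gene of its list in obese mice. These values describe the best of 11035 genes compared and share library, depth and group differences, and no p is attached.

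DMRs lay inside 2 of the 10 genes (Plin2 and Pnpla2) and within 10 kb of 3 (with Dgat2). Over tested genes with a position the shares were 12.3% and 20.6%. Within 50 kb of a DMR were 5 of the 10 genes, beside 43.8% of tested genes, and within 100 kb 7 of 10, beside 62.4%. Counting only DMRs of at least 100 bp, 1 of the 10 (Pnpla2) was within 50 kb, beside 9.67%. With 10 genes, a difference of 1 gene moves these shares by 10 percentage points. Of the 2 genes called for expression, Dgat2 had a DMR next to it and Mgll had none within 100 kb.

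**Figure D4:**
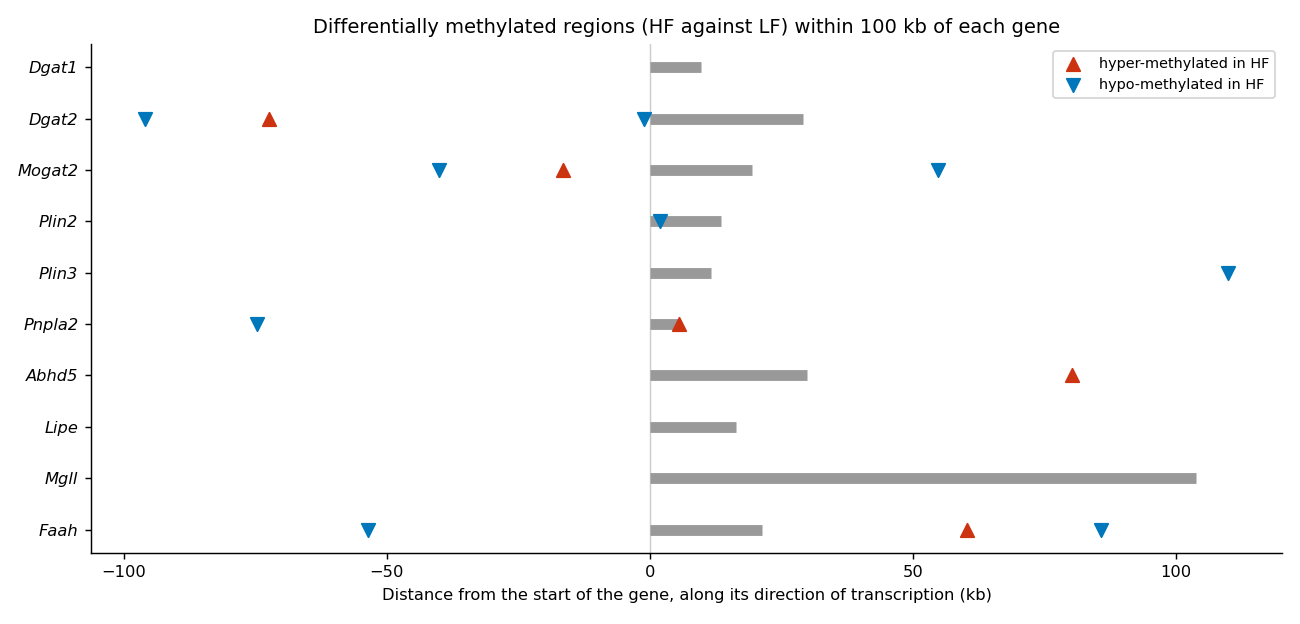
Position of DMRs between obese and control mice within 100 kb of each gene, as distance in kb of the DMR midpoint from the start of the gene along its direction of transcription (x axis). Grey bars are the genes, upward triangles hyper-methylated and downward triangles hypo-methylated DMRs. The DMRs of Dgat2 and Plin2 nearest the start lie at −1.18 and 1.88 kb, and the rows of Dgat1, Lipe and Mgll hold none.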

How the data were processed

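RNA-seq of 15 colonic epithelium samples was analysed from the count table deposited by the authors, which holds raw counts per gene. According to their methods and processing notes, stranded mRNA libraries were mapped to mm10 with TopHat2 2.0.4 and counted with HTSeq. The strand setting and annotation release are not given in the sources used here. The authors also deposited whole-genome bisulfite DMRs of obese against control mice (Bismark, Rao-Scott test), a position and direction each, with CpGs merged by the authors before deposit. Its starts were counted from 0 and were converted to 1-based positions, after which all 8199 regions began and ended on a CG of GRCm38. Deposited tables of the authors' own DESeq2 comparisons (fold changes and p-values) were not used, nor were bisulfite amplicon levels, since 0 of 233 amplicon CpGs lay within 100 kb of a gene described here.

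The genes and the pathway and marker lists were chosen with earlier results of these data known. Counts were analysed in R 4.3.3 with edgeR 4.0.16 (filterByExpr, TMM scaling, quasi-likelihood test, all 15 libraries in 1 fit, group as the only term). P-values were adjusted by the Benjamini-Hochberg method over all 12961 tested entries. A call needed a fold change over 1.2, p under 0.01 and adjusted p under 0.25, the cutoffs of the study's methods. CPM used TMM-scaled totals, and log2 CPM a prior count of 2. The fit was tested on simulated data. Named besides the 10 genes were up to 4 called genes of each pathway list, with the smallest p, up to 3 abundant genes of marker lists, and for called genes the 5 genes of highest Pearson r among those with a mean of at least 50 counts. Promoters were searched and DMRs placed with pysam 0.24.0 on RefSeq GRCm38.p6, and correlations were permuted in Python 3.11.15. Alternatives were 2 other scalings, DESeq2 1.42.0, 2 other filters, only the compared groups, a stricter threshold, removal of a GC trend, a replicate block and each library left out. Labels give 1 mouse per library, with no batch. One result of the PPAR target list is not reported here.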

Additional observations from a re-analysis of the deposited data

Results flagged for a closer look

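Of 33 groups of 5 tested (the 10 genes and the total counts in each of the 3 diet groups), 2 had a mouse whose gap to its nearest neighbour took more than 0.71 of the range of the group. Chance gives about 1 in 20. Mgll in HFLF replicate 1 was at 50.7 CPM, above the 36.3 to 37.1 CPM of the other 4 formerly obese mice (gap 0.943 of the range). Those 4 libraries held 581 to 833 Mgll counts, where sampling noise alone usually gives a wider spread. Their closeness enlarges this gap. Pnpla2 in LF replicate 3 was at 149 CPM, below the 161 to 165 CPM of the other 4 control mice (gap 0.785 of the range).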

How the results depend on the processing

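Mgll and Dgat2 were called in formerly obese mice against control under both other scalings, DESeq2, both other filters, with only the compared groups, with the GC trend removed and with each library left out. Obese against control calls were the same, but these values were in view when the genes were chosen and lend no support. The calls in formerly obese mice reuse the same control libraries, so they are not independent of that choice either. Comparisons of formerly obese with obese mice reuse the obese libraries in the same way. Stability across settings does not remove this limit. At adjusted p under 0.05 with no fold cutoff, 1 gene (Mgll) was left in each of those comparisons. With all libraries kept, log2 fold changes in formerly obese mice against control were 0.59 to 0.63 for Mgll (adjusted p of 0.00129 to 0.0572) and 0.36 to 0.41 for Dgat2 (0.0247 to 0.121). With 1 library left out they were 0.49 to 0.66 for Mgll (adjusted p up to 0.0825) and 0.27 to 0.44 for Dgat2 (adjusted p up to 0.175). Leaving out 1 library gave 2 to 2 called genes for obese against control, 2 to 3 for formerly obese against control (Mogat2 added without LF replicate 4 or HFLF replicate 2), and 0 to 1 for formerly obese against obese mice (Dgat2 without HFLF replicate 1). The counts over all genes moved more. For obese against control, beside 205 called genes, there were 40, 55, 85, 135 and 331 without HF replicates 3, 5, 4, 1 and 2, and 44, 130 and 323 without LF replicates 2, 1 and 4. For formerly obese against obese mice, beside 343, there were 167 without HFLF replicate 5 and 195 and 209 without HF replicates 1 and 2. Same-numbered mice of different groups correlated over 0.1 in 5 of 15 pairs (r of −0.231 to 0.333). Differently numbered mice were not compared, so these values cannot settle whether replicate numbers pair the mice. With a replicate block, 2, 2 and 0 of the 10 genes were called in the 3 comparisons, beside 252, 537 and 346 of all genes. Signs turned only for changes near 0 without a call. With upper-quartile scaling Faah in formerly obese against control mice was at −0.0067, and with the GC trend removed Pnpla2 in formerly obese against obese mice was at 0.015. With 1 library left out, the lowest and highest values against control were −0.12 and 0.0081 for Lipe and −0.031 and 0.086 for Plin2 in obese mice, and −0.011 and 0.11 for Plin2, −0.048 and 0.0040 for Abhd5 and −0.031 and 0.040 for Faah in formerly obese mice. Between formerly obese and obese mice they were −0.073 and 0.011 for Pnpla2, −0.012 and 0.048 for Dgat1, −0.026 and 0.072 for Plin2 and −0.044 and 0.018 for Plin3. DMRs lay near 5 genes within 50 kb, 3 within 10 kb and 1 when regions under 100 bp were dropped, by construction of these settings. Of gene pairs, 1 passed (Abhd5 and Faah), 0 without the 2 libraries farthest from the median, which has fewer mice, and without centring on group means the 1 pair was Mgll and Dgat2. Depth limits Mogat2 (30 to 130 counts) most.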
